A study of Mus musculus with 9 samples.

Results

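The genes of the proteasome were examined in the livers of female C57BL/6J mice that had received pulsed antibiotic treatment (PAT) early in life. The members were all array genes whose symbol is Psma, Psmb, Psmc, Psmd, Psme, Psmf or Psmg followed by a number, each read from its brightest probe set by the mean of the 9 arrays. This gave 49 of the 18193 genes of the array, carried by 103 probe sets, and 22 of the 49 genes had a single probe set. Of these, 47 encode parts, activators, inhibitors or assembly factors of the proteasome. The other 2, Psmc3ip, a factor of meiotic recombination, and Psme3ip1, which binds the activator Psme3, match the symbols only and are kept apart below. Psme2 and Psme2b shared a probe set that carries both symbols, so no value was assigned to either.

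Livers of 9 mice were hybridized to 1 Affymetrix array each, 3 per group. Amoxicillin mice drank water with 0.167 mg/ml (25 mg/kg/day) of this beta-lactam, and tylosin mice drank 0.333 mg/ml (50 mg/kg/day) of this macrolide, on days 10 to 15, 28 to 31 and 37 to 40 of life. Control mice drank water without antibiotic, and all groups, control included, were later fed a diet high in fat. The series description places the collection of the livers at 22 weeks of age and the sample labels at 24 weeks. Littermates stayed in 1 treatment group and shared a cage, and the litter of each array is not given in the sources used here, so litter and treatment cannot be told apart and the p-values below measure only the spread between these samples.

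The proteasome degrades proteins that carry chains of ubiquitin. Its core particle is a barrel of stacked rings: the outer alpha rings (Psma genes) gate the entrance, and the inner beta rings (Psmb genes) hold the catalytic sites. The regulatory particle, with ATPases (Psmc genes) and other subunits (Psmd genes), binds, unfolds and feeds in the substrate. Interferon induces the catalytic subunits Psmb8, Psmb9 and Psmb10, which replace Psmb5, Psmb6 and Psmb7 in the immunoproteasome, and the activator subunit Psme1. In mammalian cells the transcription factor Nfe2l1 raises the proteasome genes together when the proteasome is inhibited.

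Start-site windows of 300 bases, 250 before and 50 after the annotated start, were available from RefSeq (GRCm38.p6) for 41 of the 49 genes. The unmatched genes were Psma8, Psmb1, Psmb2, Psmb7, Psmc3, Psmd3, Psmd7 and Psmg2. The first windows below belong to Psma3 and Psma7, the alpha ring genes whose amoxicillin arrays all lay above the control arrays, with CCAAT boxes (CCAAT, or ATTGG where the match is on the other strand) in capitals.
Psma3, chr12:70974373-70974672 plus strand: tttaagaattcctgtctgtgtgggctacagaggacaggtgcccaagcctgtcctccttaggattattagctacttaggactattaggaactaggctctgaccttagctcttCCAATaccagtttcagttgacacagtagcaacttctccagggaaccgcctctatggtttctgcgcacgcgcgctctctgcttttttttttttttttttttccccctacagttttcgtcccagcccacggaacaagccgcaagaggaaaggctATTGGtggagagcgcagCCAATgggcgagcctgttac
Psma7, chr2:180042415-180042714 minus strand: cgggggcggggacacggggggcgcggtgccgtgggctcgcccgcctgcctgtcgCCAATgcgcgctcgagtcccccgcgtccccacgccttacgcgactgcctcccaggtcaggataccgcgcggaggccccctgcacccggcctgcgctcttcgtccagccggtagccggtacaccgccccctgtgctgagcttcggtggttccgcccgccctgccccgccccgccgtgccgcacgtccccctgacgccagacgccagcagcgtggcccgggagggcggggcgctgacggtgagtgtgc
The next belong to Psmb9, the member with the highest pooled within-group SD, again with its CCAAT box in capitals, and to Psme1, with the match to an interferon-stimulated response element in capitals.
Psmb9, chr17:34187281-34187580 minus strand: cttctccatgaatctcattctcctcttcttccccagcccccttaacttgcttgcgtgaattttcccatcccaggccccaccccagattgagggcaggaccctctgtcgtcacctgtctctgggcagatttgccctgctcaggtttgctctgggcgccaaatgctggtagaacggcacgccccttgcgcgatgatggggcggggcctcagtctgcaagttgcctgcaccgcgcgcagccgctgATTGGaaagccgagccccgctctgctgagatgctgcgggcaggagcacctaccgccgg
Psme1, chr14:55578244-55578543 plus strand: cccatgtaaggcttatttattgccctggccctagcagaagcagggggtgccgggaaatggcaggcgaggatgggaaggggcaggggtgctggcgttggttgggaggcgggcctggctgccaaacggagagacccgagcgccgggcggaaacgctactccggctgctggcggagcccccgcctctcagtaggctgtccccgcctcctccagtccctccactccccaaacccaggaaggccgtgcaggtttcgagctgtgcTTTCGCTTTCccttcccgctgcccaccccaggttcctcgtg
Each motif was searched on both strands by its letters alone. CCAAT was found in 15 of the 41 windows (36.6%) and in 37.4% of all 32851 windows, and in 5 of 7 alpha ring windows (71.4%). TGACNNNGC, the core of the antioxidant response element, was in 6 of 41 (14.6%), against 12.4% of all windows, and these were Psmb5, Psmb6, Psmc6, Psmd9, Psmd12 and Psme4. GAAANNGAAA, the interferon-stimulated response element, was in 5 of 41 (12.2%), against 3.44% of all windows. Its matches were at Psmb3, Psmd4, Psmd9, Psme1 and Psmg4, of which Psme1 is the interferon-induced member. In each of the windows printed, only 1 of these motifs matched, so no matches of different motifs overlapped there. The Psmb9 window shares 275 bases with that of Tap1, the peptide transporter gene on the opposite strand, and Psmb9, Tap1, Psmb8 and Tap2 are consecutive coding genes on chromosome 17.

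The values are log2 expression values normalized by the authors with RMA, so levels were compared between arrays of a gene and not between genes. Albumin (Alb), a marker of hepatocytes, was between 14.64 and 14.71 in all 9 arrays. It was the highest value of each array, so its evenness cannot measure hepatocyte content. Tat, another marker of hepatocytes, ran from 11.46 to 12.48. Some arrays stood apart in markers of other cells. In amoxicillin replicate 1 and tylosin replicate 2, the mean of 8 intestinal mucosa markers was 1.58 and 1.45 above its 9-array mean. The mean of 6 smooth muscle markers was 1.31 and 1.64 above in the same arrays. The mucosa marker Fabp2 was not raised in them (11.03 and 11.13, against 10.90 to 11.62 over all arrays). Another of these markers, Reg3b, was also 7.75 in tylosin replicate 1, against 3.07 to 3.15 in controls. The mean of 9 Kupffer cell and macrophage markers was 0.61 above in tylosin replicate 3. The markers of that list went opposite ways in this array. Marco was 10.95, against 5.81 to 8.67 elsewhere. Timd4 (7.29), Cd5l (11.95), Adgre1 (9.59) and Cd68 (7.13) were also at their highest of the 9 arrays. Clec4f (7.50) and Vsig4 (9.40) were at their lowest, and Csf1r (10.90) and C1qa (9.50) were at neither end. The T and B cell markers Cd3g, Cd79a and Cd79b stayed below 5 on the log2 scale in every array, while Cd3e was 5.26 to 6.18. No marker of the hepatocyte, leukocyte, macrophage, intestinal, smooth muscle or endothelial lists was called in any comparison. In bulk liver RNA, fewer cells of a type and less RNA per cell cannot be told apart.

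Hepatic proteasome expression differed little between the groups. The study's methods call a change at a limma P under 0.01 together with a log2 fold change beyond 0.5 in either direction. With amoxicillin 0 of the 49 members passed upwards and 0 downwards, where 0.835% and 0.445% of all genes did. With tylosin 0 were called higher and 0 lower, against 1.01% and 0.44% of all genes. Between the antibiotics 0 and 0 were called, against 0.0715% and 0.0385%. At an unadjusted P under 0.05 in limma, 3 members were higher and 2 lower with amoxicillin (background 7.14% and 8.34%), 0 were higher and 1 lower with tylosin (8.29% and 8.3%), and 0 were higher or lower between the antibiotics (1.78% and 1.36%). The lowest adjusted p of a member from limma, adjusted over all 45037 probe sets, was 0.25 with amoxicillin, 0.31 with tylosin and 1 between them. No probe set of the whole array passed an adjusted p of 0.05 in any of the 3 comparisons, while 6657, 6722 and 1335 were under an unadjusted 0.05.

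These arrays bound how far the genes moved. With amoxicillin the log2 fold changes ran from -0.28 (Psmc2) to 0.31 (Psma7), and with tylosin from -0.29 (Psmb3) to 0.27 (Psme3ip1), or to 0.25 (Psma5) among the proteasome genes proper. For each antibiotic the 95% interval of 42 of the 49 genes lay within 0.5 of 0 on the log2 scale, and all 49 lay within 1. The widest bounds were -0.55 (Psmc2) and 0.67 (Psmg2) with amoxicillin and -0.55 (Psmb3) and 0.60 (Psmg2) with tylosin. Between the antibiotics 48 of 49 intervals lay within 0.5, and the median half-width was 0.24. The median log2 fold change of the members was 0.05 with amoxicillin and 0.07 with tylosin, beside -0.03 and -0.01 over all genes and 0.06 and 0.08 over the 7732 genes with a log2 value above 6 in at least 3 arrays. Of the members, 46 passed that filter and were above 6 in all 9 arrays. The other 3 stayed below 6 throughout: Psma8, a testis subunit, at 3.29 to 3.85, Psmb11, the thymus subunit, at 2.78 to 3.45, and Psmc3ip at 3.95 to 4.38.

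**Figure D1:**
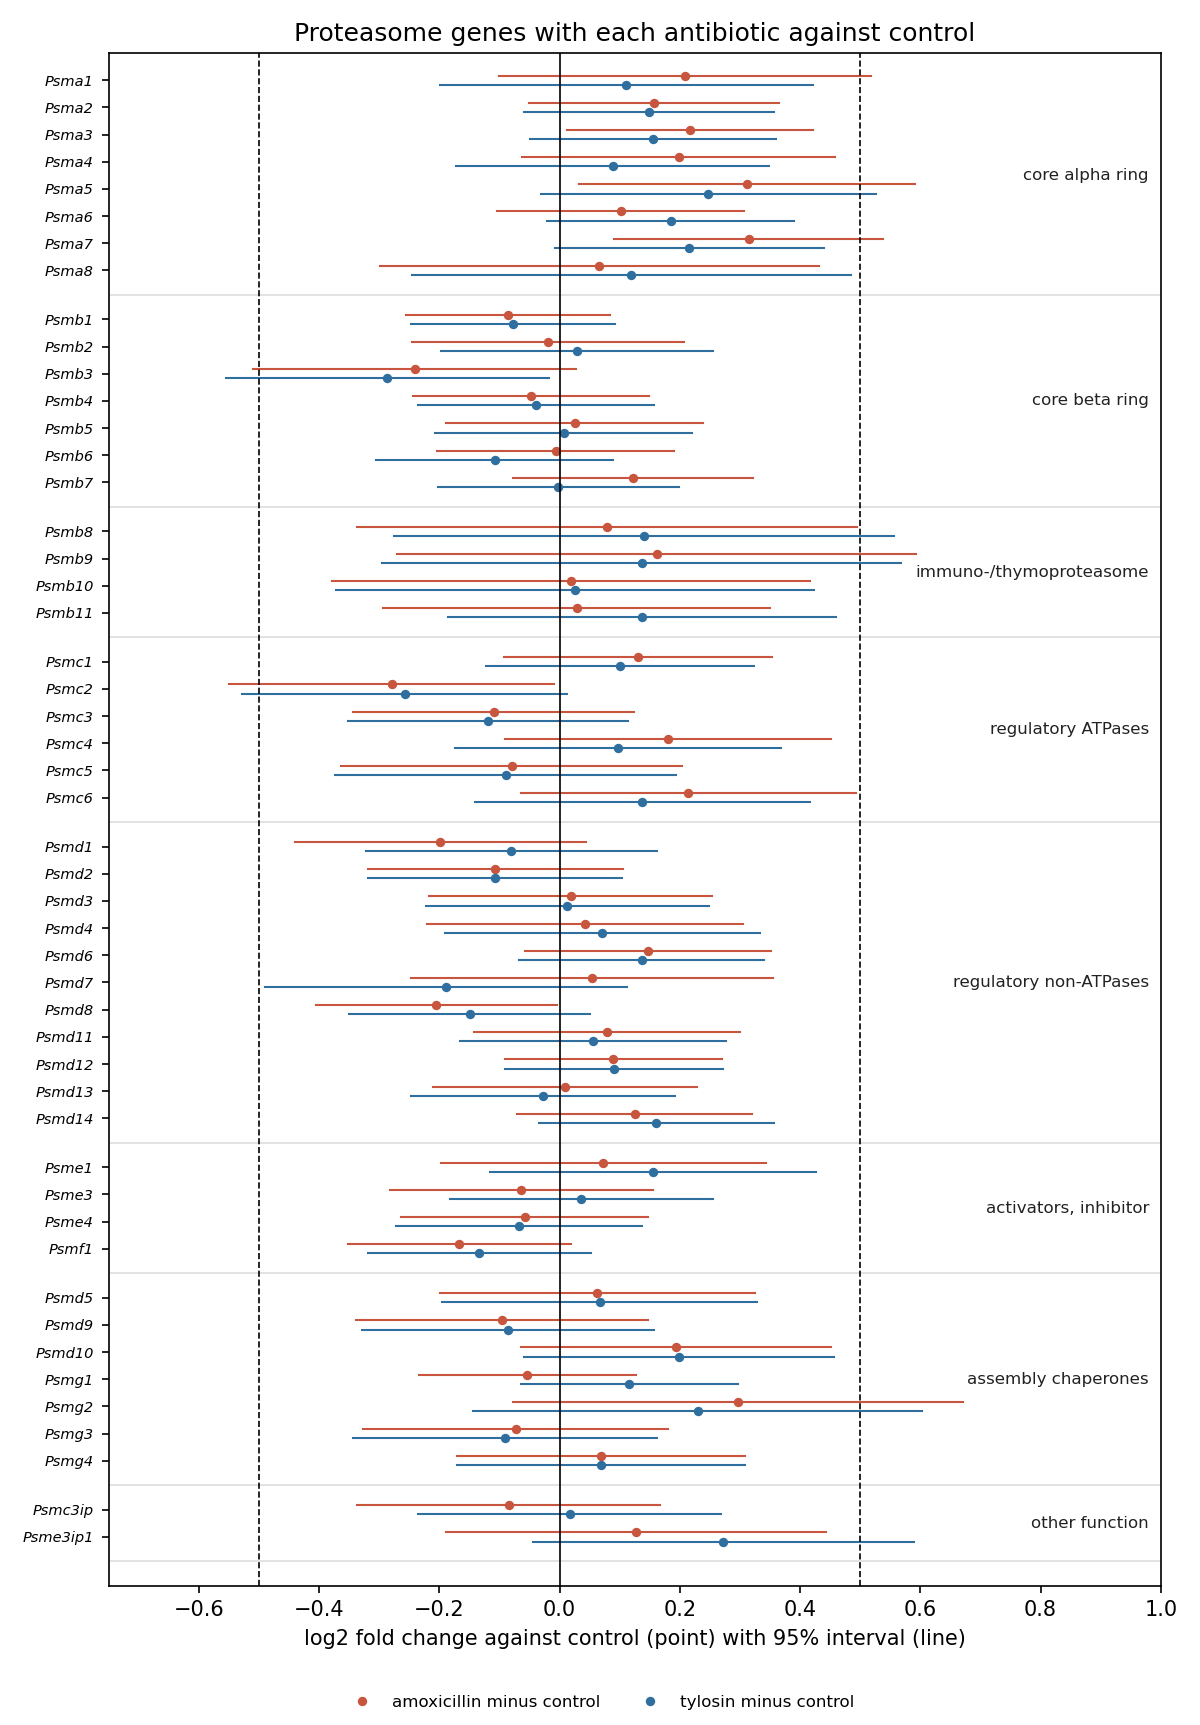
Log2 fold change against control (points) with its 95% interval (lines) for the 49 genes, grouped by role, with amoxicillin in red and tylosin in blue and dashed lines at an absolute log2 fold change of 0.5. All points lie between -0.29 and 0.31, and the 8 alpha ring genes lie to the right of 0 with both antibiotics.

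The alpha ring genes had positive log2 fold changes in 8 of 8 cases with amoxicillin (median 0.20, range 0.07 to 0.31) and in 8 of 8 with tylosin (median 0.15, range 0.09 to 0.25), where 44.6% and 46.7% of all genes were positive and 63.3% and 65.3% of the 49 members. One of them, Psma8, was below 6 in every array, and the medians of the other 7 were 0.21 and 0.16. The share of positive genes was not computed for the 7732 genes above the filter, whose medians were 0.06 and 0.08. Both comparisons use the same 3 control arrays. Between the antibiotics 24 of the 49 members were higher with tylosin, where 53.4% of all genes were, and 2 of the 8 alpha ring genes. The count stayed at 8 of 8 when all arrays were given an equal median (medians of the ring 0.26 and 0.20) and with quantile normalization (0.15 and 0.16).

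Psma7, an alpha ring subunit, had the lowest P of any member in any comparison at the brightest probe sets. It was 9.66, 10.00 and 9.71 in control mice, 10.14, 10.06 and 10.11 with amoxicillin, and 10.04, 9.97 and 10.00 with tylosin. All amoxicillin arrays lay above all control arrays, while tylosin replicate 2 lay below control replicate 2. The log2 fold change with amoxicillin was 0.31 (standard error 0.10, adjusted p = 0.25 from limma), and with tylosin it was 0.22 (standard error 0.10, limma adjusted p = 0.35). The second probe set of Psma7 gave 0.04 and 0.05.

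Psma5, another alpha ring subunit, was 9.90, 10.27 and 9.74 in control mice, 10.23, 10.29 and 10.33 with amoxicillin, and 10.25, 10.13 and 10.27 with tylosin. Control replicate 2 was as high as the antibiotic arrays, so the groups overlapped. The log2 fold change was 0.31 with amoxicillin (standard error 0.13, limma adjusted p = 0.31) and 0.25 with tylosin (standard error 0.13, limma adjusted p = 0.38), and the second probe set gave 0.10 and 0.11. Without control replicate 3 the values were 0.20 and 0.13, and without control replicate 2 they were 0.46 and 0.40. Psma3, named after its values were seen, was 11.14, 11.29 and 10.99 in control mice, 11.37, 11.35 and 11.35 with amoxicillin, and 11.30, 11.31 and 11.28 with tylosin. Its amoxicillin arrays lay above every control array, by a log2 fold change of 0.22 (standard error 0.09, limma adjusted p = 0.32).

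The control arrays differed in the mean of the alpha ring. The mean deviation of the 8 genes from their 9-array means was -0.17, 0.08 and -0.27 in control replicates 1, 2 and 3, and lay between -0.02 and 0.10 in the 6 antibiotic arrays. In this mean control replicates 1 and 3 were low and control replicate 2 was among the antibiotic arrays. At its brightest probe set Psma6 ran otherwise, with control replicate 1 the highest control. It was 11.09, 10.86 and 10.86 in control mice, 11.09, 11.04 and 10.99 with amoxicillin, and 11.13, 11.18 and 11.06 with tylosin. This probe set is of a class whose probes may match other transcripts. The second probe set of Psma6 was 10.41, 10.40 and 10.29 in control mice and gave 0.07 with each antibiotic. Without control replicate 2 the medians of the ring were 0.30 with amoxicillin and 0.24 with tylosin, and without control replicate 3 they were 0.14 and 0.10. Without amoxicillin replicate 1 and tylosin replicate 2, the arrays with the highest means of intestinal and smooth muscle markers, they were 0.18 and 0.15. The values of an array, over its probe sets, had an SD of 2.26 to 2.27 in controls and 2.29 to 2.35 with antibiotics, and the part of this in the alpha ring values was not tested beyond the scalings above.

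The constitutive beta ring genes lay lower in 5 of 7 cases with each antibiotic, where 55.3% and 53.3% of all genes did (medians -0.02 and -0.04). These counts turned with the scaling, to 2 and 3 of 7 lower with equal array medians and 6 and 7 of 7 with quantile normalization. Psmb3, a beta subunit without a catalytic site, lay furthest from control. It was 10.51, 10.76 and 10.67 in control mice, 10.43, 10.45 and 10.34 with amoxicillin, and 10.23, 10.23 and 10.63 with tylosin. The amoxicillin arrays lay below all control arrays and tylosin replicate 3 among them. The log2 fold change was -0.24 with amoxicillin (standard error 0.12, limma adjusted p = 0.38) and -0.29 with tylosin (standard error 0.12, limma adjusted p = 0.31), and its second probe set gave -0.21 and -0.28. Without tylosin replicate 3 the tylosin value was -0.42.

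Psmb1, a beta subunit without a catalytic site, is the member whose values were closest within groups, with a pooled within-group SD of 0.03. It was 9.99, 10.07 and 10.03 in control mice, 9.97, 9.90 and 9.95 with amoxicillin, and 9.95, 9.94 and 9.96 with tylosin. Every antibiotic array lay below every control array, by log2 fold changes of -0.09 (standard error 0.08, limma adjusted p = 0.62) and -0.08 (standard error 0.08, adjusted p = 0.65). A dim second probe set of Psmb1 was the only 1 of the 54 other probe sets of the members to pass the thresholds in either antibiotic comparison. How often such probe sets passed over the whole array was not computed, so this count has no background. The dim probe set was 5.90, 6.03 and 5.96 in control mice, 5.07, 5.41 and 4.68 with amoxicillin, and 4.52, 4.59 and 5.76 with tylosin. The log2 fold change was -0.91 with amoxicillin and -1.01 with tylosin (standard error 0.29 each, limma adjusted p = 0.25 and adjusted p = 0.21). The antibiotic arrays all lay below the control arrays at this probe set too, and tylosin replicate 3 was closest to control. The dimmest probe set of Psmb1, at 3.52 to 4.40, did not share this fall. Its groups overlapped, and its log2 fold changes were 0.24 with amoxicillin and -0.03 with tylosin.

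The calls of the dim Psmb1 probe set were close to the threshold. Both were lost without any 1 control array, at log2 fold changes of -0.88 to -0.94 with amoxicillin and -0.98 to -1.04 with tylosin, and the tylosin call also without tylosin replicate 1 (-0.79) or 2 (-0.82). The amoxicillin call was lost without amoxicillin replicate 1 (-0.92) or 3 (-0.72), without tylosin replicate 2 (-0.91), with equal array medians and with the replicate number as a block, where P was above 0.01. Without tylosin replicate 3 the tylosin log2 fold change was -1.41 (limma adjusted p = 0.057). The 3′ minus 5′ difference of the Actb control probe sets, a sign of RNA length, was 1.29, 1.39 and 1.40 in control arrays, 1.57, 1.39 and 1.57 with amoxicillin, and 1.49, 1.73 and 1.21 with tylosin. Tylosin replicate 3 had the smallest difference and the Psmb1 value closest to control. Amoxicillin replicate 2, within the control range of this difference, had a Psmb1 value of 5.41. The same difference for Gapdh was 0.23, 0.40 and 0.43 in control arrays, 0.54, 0.31 and 0.39 with amoxicillin, and 0.41, 0.53 and 0.34 with tylosin. There tylosin replicate 3 was not the smallest. The part of RNA length in these values was not tested.

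**Figure D2:**
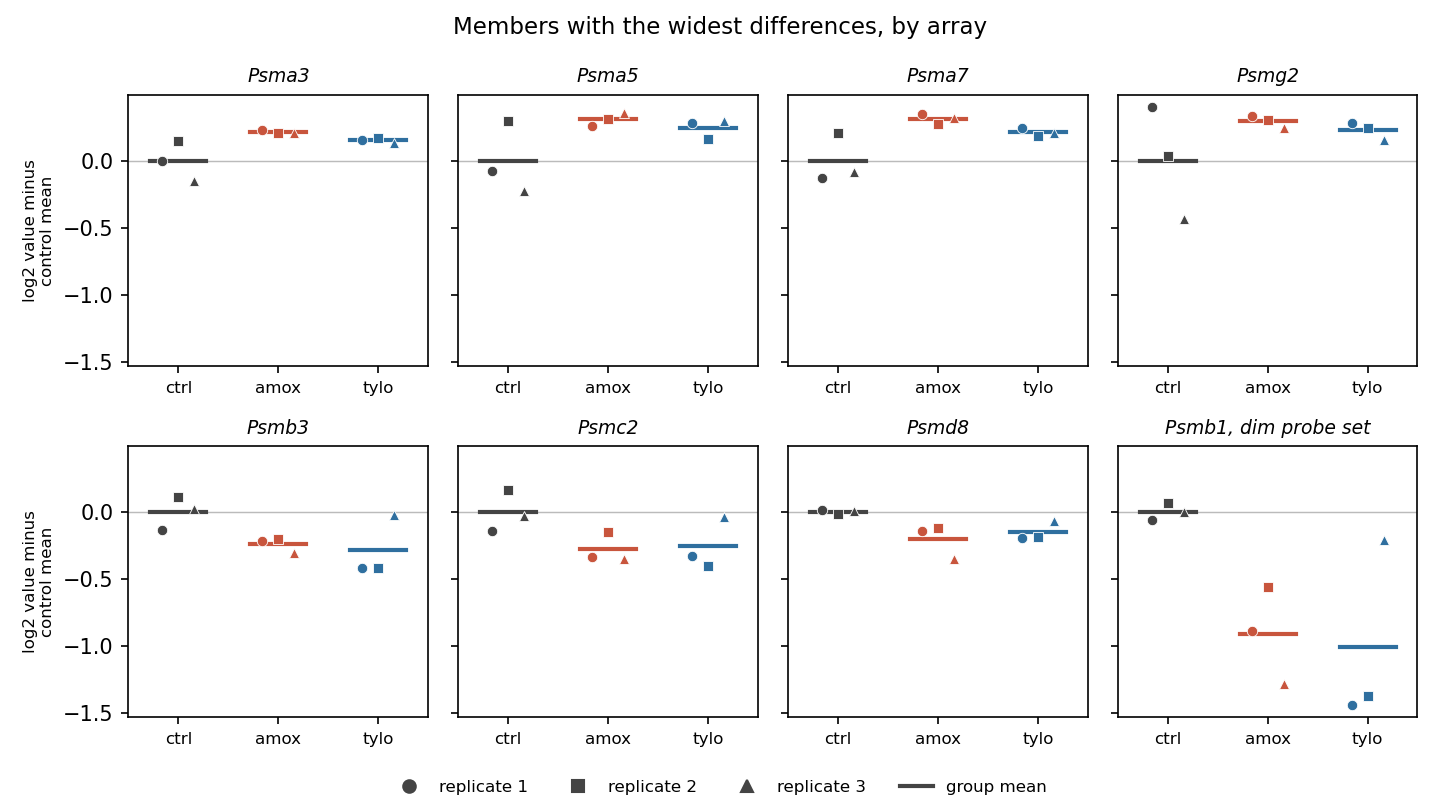
Log2 value minus the control mean, by array, for the proteasome genes with the widest differences and for the dim probe set of Psmb1; symbols are replicates and bars are group means. Psma3 and Psma7 lie above the control arrays in all amoxicillin arrays, and the dim Psmb1 probe set lies below them in all 6 antibiotic arrays.

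The catalytic subunits of the core particle stayed close to control. Psmb5, the chymotrypsin-like subunit, was 9.83, 9.88 and 9.73 in control mice, 9.82, 9.85 and 9.84 with amoxicillin, and 9.70, 9.77 and 9.99 with tylosin. Its log2 fold changes were 0.03 (95% interval -0.19 to 0.24) and 0.01 (-0.21 to 0.22), with overlapping groups. Psmb6, the caspase-like subunit, was 10.02, 10.19 and 10.08 in control mice, 10.15, 10.06 and 10.06 with amoxicillin, and 10.01, 9.89 and 10.08 with tylosin, at intervals of -0.20 to 0.19 and -0.30 to 0.09. Psmb7, the trypsin-like subunit, was 9.33, 9.49 and 9.49 in control mice, 9.62, 9.58 and 9.49 with amoxicillin, and 9.51, 9.46 and 9.34 with tylosin, at intervals of -0.08 to 0.32 and -0.20 to 0.20. The groups overlapped for all of these genes.

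By the SD pooled over the groups, their interferon-inducible counterparts varied more between mice of a group than any other member. In the control group alone Psmg2 (SD 0.42) and Psmb11 (SD 0.34) spread further than these genes. The pooled within-group SD was 0.29 for Psmb9, 0.28 for Psmb8 and 0.26 for Psmb10, the highest of the 49 genes, beside 0.10, 0.08 and 0.08 for Psmb5, Psmb6 and Psmb7. The median was 0.13 over the members and 0.14 over the 7732 genes above the filter. This ranking was read from the same values and has no test. The log2 fold changes of the immunoproteasome genes with the thymus subunit Psmb11 were positive in 4 of 4 cases with each antibiotic (medians 0.05 and 0.14), and in 2 and 3 of 4 with quantile normalization. Psmb11 was below 6 in every array, and 44.6% and 46.7% of all genes were positive.

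Psmb9, which replaces Psmb6, was 8.06, 7.62 and 7.46 in control mice, 8.16, 7.69 and 7.77 with amoxicillin, and 7.89, 7.52 and 8.14 with tylosin. The 3 groups overlapped, and the log2 fold changes were 0.16 (95% interval -0.27 to 0.59, limma adjusted p = 0.72) and 0.14 (-0.29 to 0.57, adjusted p = 0.76). Without amoxicillin replicate 1 the first was 0.02, and without tylosin replicate 3 the second was -0.01. Psmb8, which replaces Psmb5, was 8.57, 8.18 and 8.09 in control mice, 8.62, 8.32 and 8.14 with amoxicillin, and 8.44, 8.08 and 8.75 with tylosin (log2 fold changes 0.08 and 0.14). It was -0.05 with amoxicillin without replicate 1 and -0.02 with tylosin without replicate 3. Psmb10, which replaces Psmb7, was 8.89, 8.46 and 8.50 in control mice, 8.999, 8.39 and 8.51 with amoxicillin, and 8.78, 8.39 and 8.76 with tylosin (0.02 and 0.03), and with 1 array left out it ran from -0.16 to 0.16 with amoxicillin and from -0.05 to 0.17 with tylosin. High and low mice were thus found in all 3 groups.

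Within the control and amoxicillin groups 1 mouse was the highest for all of these genes, which did not hold with tylosin. In the control and amoxicillin groups replicate 1 was the highest for Psmb8, Psmb9, Psmb10 and Psme1. In the tylosin group replicate 2 was the lowest for Psmb8, Psmb9 and Psmb10, and replicate 3 for Psme1 (9.38). The highest was replicate 3 for Psmb8 and Psmb9 and replicate 1 for Psmb10 and Psme1. The mean deviation of the 4 genes was 0.23, -0.18 and -0.24 in the control arrays, 0.27, -0.12 and -0.10 with amoxicillin, and 0.13, -0.20 and 0.21 with tylosin.

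In their mean, though not gene by gene, the other interferon genes ran alongside in the control and tylosin groups. None of the 8 measured interferon response genes was called in any comparison. Their mean deviation was 0.26, -0.03 and -0.27 in the control arrays and 0.23, -0.28 and 0.34 with tylosin. With amoxicillin it was -0.08, -0.07 and -0.10, so replicate 1, high for the immunoproteasome genes, was not high for these. Within the tylosin group, Gbp2 (8.41), Irf8 (6.34) and Irf1 (8.46) were highest in replicate 3. The others, Ifit1 (8.50), Ifit3 (7.71), Usp18 (8.58), Rsad2 (9.22) and Irf9 (7.73), were highest in replicate 1. The leukocyte markers (10 of 11 measured) stood at -0.25, 0.03 and 0.02, then 0.14, -0.09 and -0.26, then -0.14, -0.06 and 0.62, and the 9 macrophage markers at -0.44, 0.30 and -0.04, then 0.43, -0.23 and -0.44, then -0.01, -0.19 and 0.61, in the control, amoxicillin and tylosin arrays. Control replicate 1 was thus high for the immunoproteasome genes and lowest of its group for both marker lists. Amoxicillin replicate 1 and tylosin replicate 3 had the highest means of their groups for both. In tylosin replicate 3 the macrophage markers Marco, Timd4, Cd5l, Adgre1 and Cd68 were high, and Clec4f and Vsig4 were low. The part of cell content in these values was not tested.

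**Figure D3:**
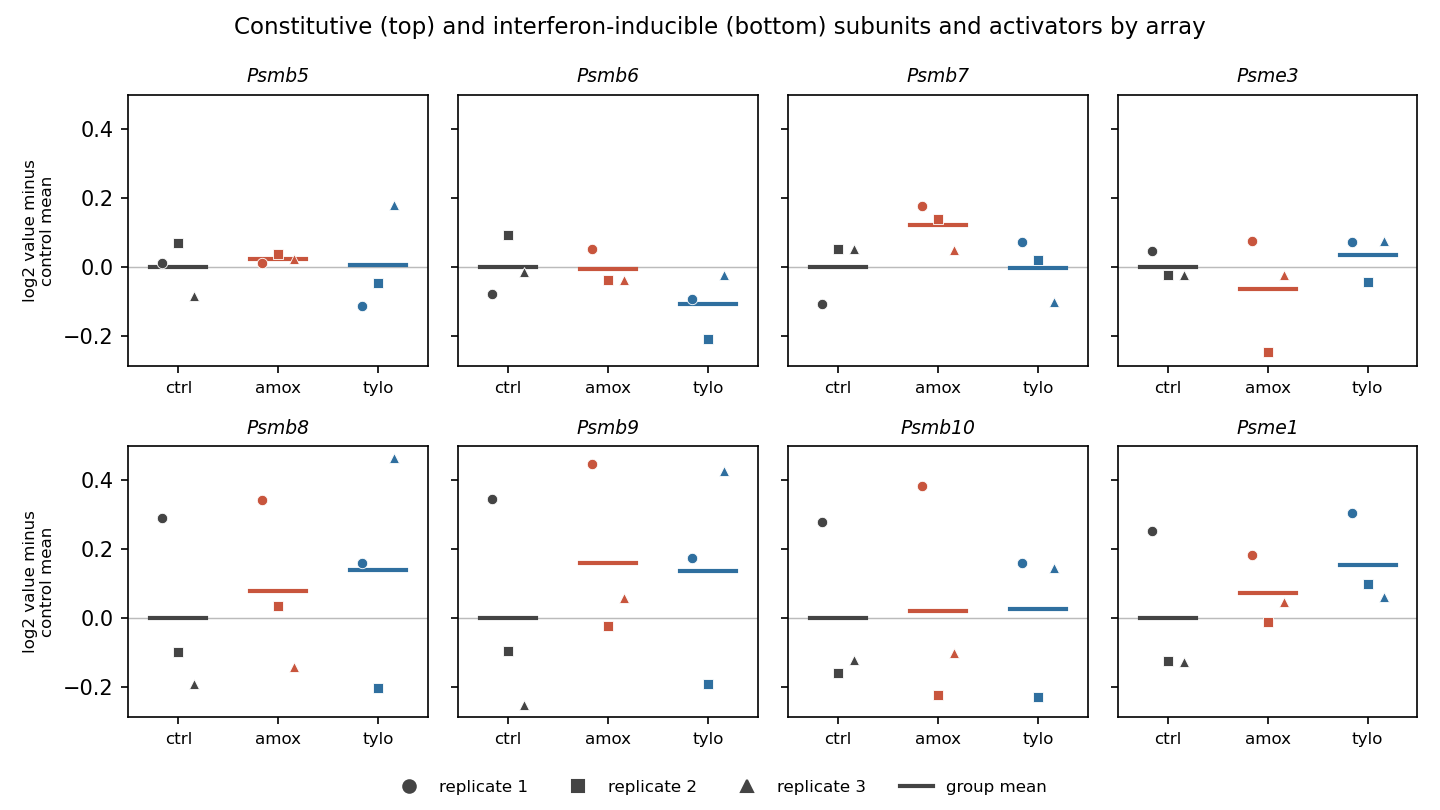
Log2 value minus the control mean, by array, for the constitutive catalytic subunits Psmb5, Psmb6 and Psmb7 and the activator Psme3 (top) and for the interferon-inducible Psmb8, Psmb9, Psmb10 and Psme1 (bottom); symbols are replicates and bars are group means. Psmb8, Psmb9 and Psmb10 spread over 0.39 to 0.66 within each group, Psme1 over 0.19 to 0.38, and replicate 1 is on top for all of them in the control and amoxicillin groups.

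Class I presentation, which uses the peptides of the immunoproteasome, was followed through 8 genes, and 0 were called in any comparison. Tap1, the neighbour of Psmb9, was 7.31, 7.24 and 7.12 in control mice, 7.29, 7.30 and 7.24 with amoxicillin, and 7.37, 6.97 and 7.65 with tylosin. As for Psmb9, tylosin replicate 2 was low and replicate 3 high, whereas amoxicillin replicate 1 did not stand apart. Nlrc5, the transactivator of class I genes, had log2 fold changes of 0.33 (limma adjusted p = 0.35) and 0.43 (adjusted p = 0.27).

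In the regulatory particle, 3 of 6 ATPase genes lay higher and 3 lower with each antibiotic, and of 11 other subunit genes 8 lay higher with amoxicillin and 6 with tylosin. Psmc2, an ATPase, was 10.27, 10.57 and 10.38 in control mice, 10.07, 10.26 and 10.06 with amoxicillin, and 10.08, 10.01 and 10.37 with tylosin. The amoxicillin arrays lay just below the control arrays, with a log2 fold change of -0.28 (standard error 0.12, limma adjusted p = 0.33), and with tylosin it was -0.26 (standard error 0.12, limma adjusted p = 0.36). Its brightest probe set is of the class whose probes may match other transcripts, and the second gave -0.03 and -0.04.

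Psmd8, a lid subunit without ATPase activity, was 10.18, 10.15 and 10.17 in control mice, 10.02, 10.04 and 9.82 with amoxicillin, and 9.97, 9.98 and 10.09 with tylosin. All antibiotic arrays lay below all control arrays. The log2 fold change was -0.20 with amoxicillin (standard error 0.09, limma adjusted p = 0.33) and -0.15 with tylosin (standard error 0.09, limma adjusted p = 0.45). Psmd7, the inactive partner of the deubiquitinase Psmd14, was 8.32, 8.73 and 8.43 in control mice, 8.34, 8.74 and 8.55 with amoxicillin, and 8.20, 8.26 and 8.45 with tylosin. It gave the largest difference between the antibiotics, -0.24 for tylosin against amoxicillin (standard error 0.14, limma adjusted p = 1), with overlapping groups.

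Among the activators, Psme1, a subunit of the interferon-induced activator ring, was 9.57, 9.19 and 9.19 in control mice, 9.50, 9.31 and 9.37 with amoxicillin, and 9.62, 9.42 and 9.38 with tylosin. Control replicate 1 was within the antibiotic range, and the log2 fold changes were 0.07 (limma adjusted p = 0.80) and 0.16 (adjusted p = 0.57). With 1 array left out these ran from 0.0095 (without control replicate 3) to 0.20 (without control replicate 1) and from 0.08 (without tylosin replicate 1) to 0.28 (without control replicate 1). Psme3, the subunit of a nuclear activator, was 6.52, 6.45 and 6.45 in control mice, 6.55, 6.23 and 6.45 with amoxicillin, and 6.55, 6.43 and 6.55 with tylosin (-0.06 and 0.04). Psmf1, an inhibitor of the core particle, was 7.98, 7.81 and 7.89 in control mice, 7.68, 7.76 and 7.74 with amoxicillin, and 7.75, 7.82 and 7.71 with tylosin. Its amoxicillin arrays lay below the control arrays, with log2 fold changes of -0.17 (limma adjusted p = 0.38) and -0.13 (adjusted p = 0.47).

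Of the 7 assembly chaperone genes, 4 lay higher with amoxicillin and 5 with tylosin. Psmg2, which with Psmg1 starts the assembly of the alpha ring, was 7.90, 7.53 and 7.07 in control mice, 7.83, 7.81 and 7.75 with amoxicillin, and 7.78, 7.75 and 7.66 with tylosin. The antibiotic arrays lay close together inside the wide range of the control arrays. The log2 fold change was 0.30 with amoxicillin (standard error 0.17, limma adjusted p = 0.43) and 0.23 with tylosin (standard error 0.17, limma adjusted p = 0.54). Without control replicate 3 these were 0.08 and 0.01, and without control replicate 1 they were 0.50 and 0.43. Psme3ip1 was 7.49, 7.32 and 7.64 in control mice, 7.87, 7.40 and 7.55 with amoxicillin, and 7.80, 7.91 and 7.55 with tylosin, with overlapping groups and a log2 fold change of 0.27 with tylosin (limma adjusted p = 0.39).

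Few genes separated the groups fully. With amoxicillin, Psma3 and Psma7 lay above all control arrays, 2 of 49 where 9.52% of all genes did, and Psmb1, Psmb3, Psmc2, Psmd8 and Psmf1 lay below, 5 of 49 where 11.4% did. With tylosin, Psmg1 lay above (8.21% of all genes) and Psmb1, Psmd2 and Psmd8 lay below (9.15%). Between the antibiotics, Psmg1 was higher with tylosin (3.58% of all genes) and Psma3 and Psma7 were lower (2.56%). These shares were below the background except for the 2 of 49 genes lower with tylosin than with amoxicillin, 4.08%.

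Probe sets of a gene did not always run together. Of 15 genes with at least 2 probe sets above the filter, the log2 fold changes had the same sign at all of them for 10 genes with amoxicillin and 9 with tylosin. Psmc6, an ATPase, had 3 such probe sets at 0.21 to 0.44 with amoxicillin and 0.14 to 0.33 with tylosin. Psmc4, another ATPase, had opposite signs, 0.18 and -0.24 with amoxicillin and 0.10 and -0.20 with tylosin. Psmb4, Psmd4, Psmd11 and Psme4 differed in sign with both antibiotics, and Psmf1 with tylosin.

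**Figure D4:**
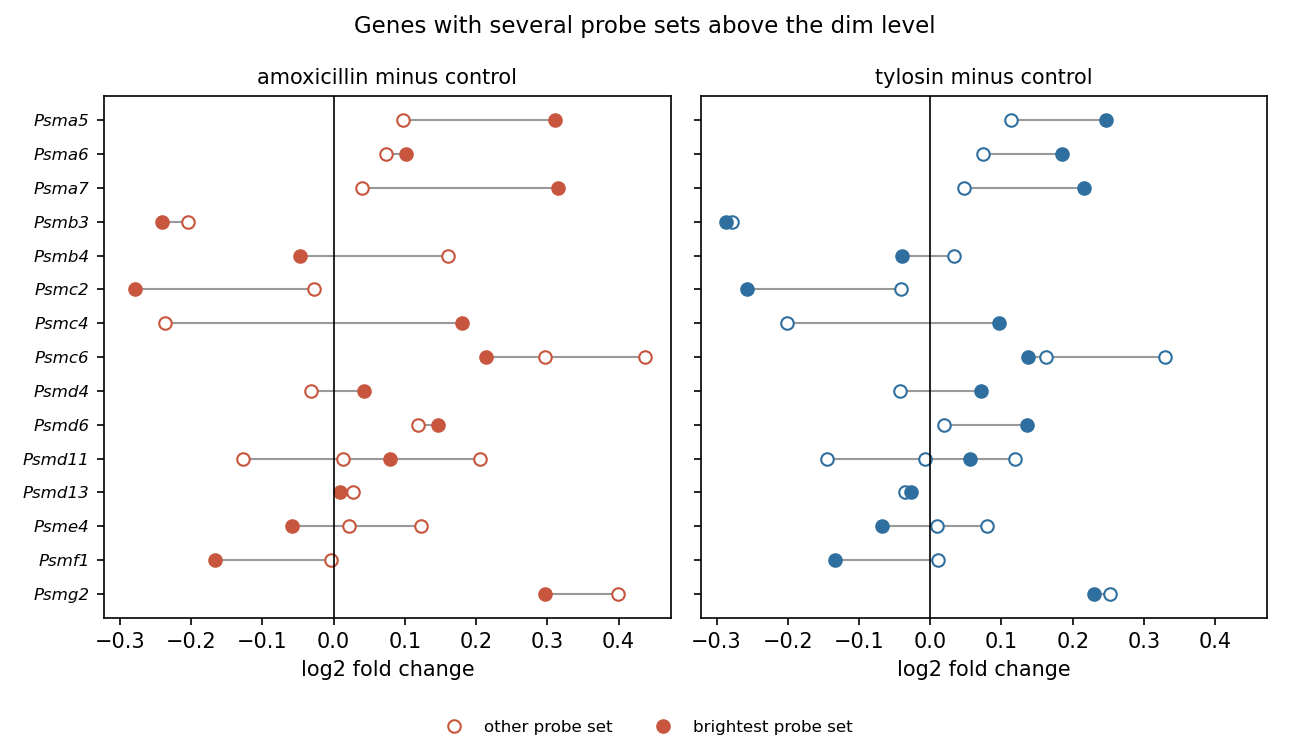
Log2 fold change against control of every probe set above the filter for the 15 genes with at least 2 of them, amoxicillin left and tylosin right; filled points are the brightest probe set, which stands for the gene in the text, and open points are the others. Psmb3 lies left of 0 and Psmc6 and Psmg2 right of 0 at all their probe sets, while Psmc4 lies on both sides.

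Of the genes that work with the proteasome, 0 were called in any comparison in the lists of partners, gene regulators and ubiquitin factors. Some lay further from control than any member. Of 10 measured partners, 7 lay higher with each antibiotic (medians 0.14 and 0.15), and 5 lay above all control arrays with amoxicillin, where 9.52% of all genes did, and 2 with tylosin (8.21%). Ecpas, a scaffold of the proteasome, was 7.35, 7.59 and 7.29 in control mice, 7.88, 7.75 and 7.78 with amoxicillin, and 7.86, 7.62 and 7.56 with tylosin. Its amoxicillin arrays lay above the control arrays, by a log2 fold change of 0.39 (limma adjusted p = 0.23), under the 0.5 of the thresholds. Txnl1, a thioredoxin-like protein of the regulatory particle, was 9.82, 9.85 and 9.82 in control mice, 10.08, 10.06 and 10.04 with amoxicillin, and 10.12, 10.25 and 9.95 with tylosin. Both antibiotic groups lay above the control arrays, by 0.23 (limma adjusted p = 0.30) and 0.28 (adjusted p = 0.24).

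Of 7 measured regulators of proteasome genes, 2 lay higher and 5 lower with each antibiotic. Nfe2l1 itself was 8.31, 8.12 and 8.24 in control mice, 7.96, 7.95 and 8.32 with amoxicillin, and 8.22, 8.06 and 7.93 with tylosin, with overlapping groups and a log2 fold change of -0.15 with each (limma adjusted p = 0.59 and adjusted p = 0.57). Ngly1, which removes the sugar chains of Nfe2l1, gave 0.34 with each. Syvn1, the ubiquitin ligase of the endoplasmic reticulum that degrades Nfe2l1, was 8.67, 9.48 and 9.83 in control mice, 8.63, 8.58 and 8.73 with amoxicillin, and 8.73, 8.98 and 9.14 with tylosin. It gave -0.68 (limma adjusted p = 0.27) and -0.38 (adjusted p = 0.47), and control replicate 1 lay among the antibiotic arrays. Ogt, which modifies proteins with N-acetylglucosamine, lay above the control arrays with both antibiotics, by 0.21 (limma adjusted p = 0.30) and 0.26 (adjusted p = 0.23). Of 8 measured ubiquitin activators and shuttles, 6 lay higher with each antibiotic (medians 0.10 and 0.11). Uba6, a ubiquitin-activating enzyme, was 6.23, 6.35 and 5.80 in control mice, 6.59, 6.40 and 6.47 with amoxicillin, and 6.78, 6.58 and 6.31 with tylosin, log2 fold changes of 0.36 and 0.43. Ecpas, Txnl1, Ngly1, Syvn1, Ogt, Uba6, Tap1 and Nlrc5 were named after their values were seen.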

How the data were processed

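Total RNA of 9 livers, 3 per group, was labelled and hybridized to Affymetrix Mouse Genome arrays. The deposited values are log2 expression values that the authors normalized by RMA in the affy package (versions not given). They ran from 2.00 to 14.71. Arrays carry no read depth, and their number limits the precision.

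Of 45101 probe sets, 64 manufacturer's controls were left out and 45037 were tested. The annotation gave 34945 of them 1 symbol, 932 several and 9160 none. For the comparisons, limma 3.58.1 (R 4.3.3; lmFit, eBayes) was fitted to all 9 arrays together, with Benjamini-Hochberg adjustment over all probe sets. A call needed P under 0.01, unadjusted, with a log2 fold change beyond 0.5 in either direction, as in the study's methods. The fit was tested on simulated data. Dim probe sets were kept in the main values.

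Values in every array were given for the 3 largest rises and falls with each antibiotic, the most changed gene of each role group, the catalytic and activator subunits, and genes with another probe set called. The members and lists were chosen with earlier results of these data known. Alternatives were each array left out, a replicate block, the mean of a gene's probe sets, array weights, fits without the group not compared, a variance that was trended and robust, quantile normalization, median centring, a dim filter, a lower fold threshold and an adjusted p. A fit without the arrays highest in intestinal and smooth muscle markers (amoxicillin replicate 1, tylosin replicate 2) was added after the data were seen. Motif shares used 300-base RefSeq windows on GRCm38.p6. Plots were made in Python 3.11.15 with matplotlib 3.10.9.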

Additional observations from a re-analysis of the deposited data

Results flagged for a closer look

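Psmg1, an assembly chaperone of the alpha ring, lay on opposite sides of the control mean with the antibiotics: every amoxicillin array was below it and every tylosin array above it. It was 8.74, 8.59 and 8.66 in control mice, 8.62, 8.56 and 8.64 with amoxicillin, and 8.79, 8.75 and 8.80 with tylosin. The control arrays overlapped the amoxicillin arrays and lay below the tylosin arrays. The difference between tylosin and amoxicillin was 0.17 on the log2 scale (standard error 0.08, limma adjusted p = 1). Against control the log2 fold changes of Psmg1 were -0.05 with amoxicillin and 0.12 with tylosin (standard error 0.08 each). Psmg1 was found by a search of the members for this pattern, so it was named after its values were seen. The share of all genes with the pattern was not computed.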

How the results depend on the processing

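The counts of members called, 0 in each direction of each comparison, were 0 under every alternative run: 102 values, among them the adjusted p, the lower fold threshold of 0.25, both scalings, array weights, the trended variance and each array left out. The median log2 fold change of the members kept within 1 SD of the arrays (0.036) in 37 of 45 values and changed sign in 6. It was 0.11 with amoxicillin and 0.12 with tylosin with median centring, and -0.025 and 0.028 with quantile normalization. With 1 array left out it ran from 0.0095 to 0.060 with amoxicillin, from 0.018 to 0.095 with tylosin and from -0.023 to 0.016 between the antibiotics. It was lowest with amoxicillin without control replicate 3 (0.0095) and with tylosin without tylosin replicate 3 (0.018), followed by 0.024 without control replicate 3 and 0.026 without control replicate 1. The cause of these shifts was not tested. Of the 510 values of the named genes, 495 stayed within their within-group SD, 15 moved further, 40 changed sign and 0 were called.

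With the replicate number as a block, the counts stayed at 0 and the medians at 0.05, 0.07 and -0.001. The deviations of same-numbered arrays correlated over 0.1 in 2 of 9 pairs, and 3 of 9 arrays were closest to their own number. With so few arrays these counts cannot decide whether same-numbered arrays were paired, and the sample labels give no pairing.

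The number of arrays limits what could be seen: with 3 a group, the median half-width of the members' 95% intervals was 0.24 on the log2 scale.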
